A study of Mus musculus with 18 samples.

Results

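Actin filaments and intermediate filaments give embryonic stem cells their shape, and 9 genes for their subunits and binding proteins were followed across polysome fractions of mouse embryonic stem cells (ESCs) with and without DDX6. The genes were listed by name for their link to colony shape and differentiation. They encode the cytoplasmic actins (Actb and Actg1), actin-binding proteins (Tpm1, Tagln2 and Cald1), vimentin (Vim) and the simple-epithelial keratins (Krt8, Krt18 and Krt19). All 9 were present among the 51467 genes of the count table by their Ensembl identifiers, and 8 of them passed the filter on low counts (at least 3 CPM, the count scaled to a fixed library total, in at least 3 libraries), as did 12705 genes in all. Actg1 did not pass and was therefore not tested. Wild-type (WT) V6.5 ESCs and Ddx6 knockout (Ddx6 KO) ESCs derived from them were grown in serum with LIF and 2i, and were treated with 100 µg/ml cycloheximide for 2 min before lysis. Lysates were spun through 10-50% sucrose, and the monosome, low polysome (2 to 4 ribosomes) and high polysome (4 or more ribosomes) of each gradient were collected. Each group of genotype and fraction had 3 libraries, 18 in all. The knockout was made with a CRISPR-Cas9 cut early in an exon of Ddx6 and rests on 2 clones, 1 with an insertion and 1 with a deletion, of which clone 1 gave KO gradient 1 and clone 2 gave KO gradients 2 and 3. The labels do not say that the gradients of a genotype came from separate cultures, so p-values measure the spread between these gradients, which may be technical.

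Actin polymerizes into thin filaments that bear contractile force, and tropomyosin, caldesmon and transgelin bind along them and regulate their use by myosin. Many genes of this group are classical targets of serum response factor (SRF), whose MRTF coactivators are held in the cytoplasm by monomeric actin and freed when it polymerizes. Vimentin is the intermediate filament protein of mesenchymal cells and is also made in pluripotent cells. Krt8 and Krt18 encode the type II and type I keratins that pair to form the first intermediate filaments of the embryo, in trophectoderm, and Krt19 is a further type I keratin of simple epithelia. DDX6 is an RNA helicase of P-bodies that acts in translational repression and decapping, in part downstream of miRNAs.

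Total gene counts per library ran from 2543617 to 11474550. Libraries of the same group correlated with each other at a Spearman rho of 0.969 to 0.992 over 18 pairs, and none stood apart. The targeted gene Ddx6 lay at 143 to 212 CPM in WT libraries, at 55.3 to 82.7 CPM in clone 1 and at 9.68 to 26.7 CPM in clone 2. Reads at the 3′ end do not cover the edited site. All 8 ESC markers examined were expressed, with a summed level of 2303 to 5537 CPM in WT and 2432 to 4113 CPM in KO libraries. Values are CPM scaled by TMM within each library, so a level is a share of the mRNA in that fraction and not an amount per cell. In bulk cultures, fewer cells that express a gene and less RNA per cell cannot be told apart.

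To ask how the 9 genes differ in abundance without DDX6, each fraction of KO was set against the same fraction of WT. Actb, the genes for actin-binding proteins and the keratin genes were higher in KO, the keratins by most, and Vim was the exception. Averaged over the 3 fractions of a gradient, the fold change was 21 for Krt8 and 12.6 for Krt18. For Krt19, which had 0 counts in all 3 fractions of WT gradient 1, limma gave a log2 change of 4.84 that depends on the prior count, 4.15 without that gradient and 3.76 at equal depth, so its place beside Krt8 is not fixed. The fold change was 3.01 for Cald1, 2.87 for Tagln2, 2.04 for Actb and 1.79 for Tpm1, and 0.626 for Vim. By limma, 7 of the 8 tested genes were higher in this mean, against 28.4% of all genes, and 1 was lower, against 28.2%. In the monosome 7 were higher (18.6% of all genes) and 1 was lower (20.1%). The low polysome also had 7 higher (23.4%) and 1 lower (24.3%). In the high polysome 7 were higher (25.3%) and 0 were lower (21.1%), Vim being the gene not called. The median log2 change of the 8 genes was 1.56 in the mean over fractions and that of all genes was -0.02. Krt8 and Krt19 passed the filter through their KO libraries alone, so these 2 were kept for their KO level and their calls add nothing to the counts. Of the other 6 genes 5 were higher in the mean over fractions and 1 was lower, with a median log2 change of 1.28. Where levels given below do not overlap between genotypes, the share of all genes with such a gap was not counted.

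**Figure D1:**
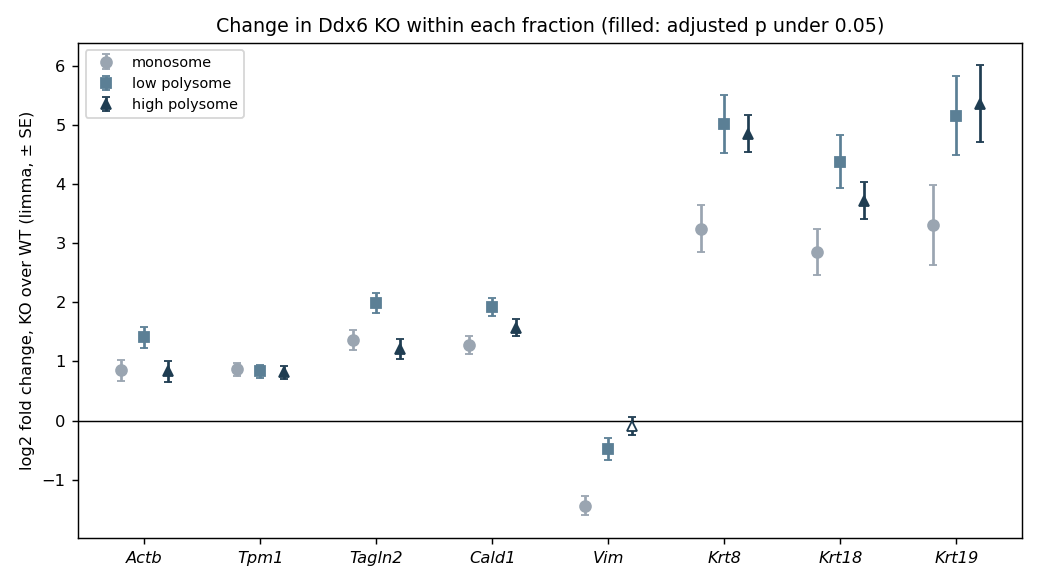
Log2 fold change of KO over WT from limma (vertical axis, error bars are the SE) for the 8 tested genes by fraction, from 3 libraries per group, with filled symbols for an adjusted p under 0.05. Krt8, Krt18 and Krt19 lie between 2.86 and 5.36, and Vim moves from -1.44 in the monosome to -0.09 in the high polysome.

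Beta-actin, encoded by Actb at chr5:142903115-142906754 (mm10, minus strand), is the major cytoplasmic actin and the most counted of these genes. In the monosome its level was 1512, 1959 and 1250.3 CPM in WT gradients 1 to 3 and 3054, 2665 and 2656 CPM in KO gradients 1 to 3. The high polysome had 7617, 5232 and 6231 CPM in WT and 10682, 10966 and 11997 CPM in KO, and the low polysome 1856, 1642 and 2253 and 4447, 6689 and 4340.4 CPM. In all 3 fractions every KO library lay above every WT library. By limma Actb rose most in the low polysome, with a log2 change of 1.41 (SE 0.18, adjusted p = 2.36e-06). The monosome gave 0.85 (SE 0.18, adjusted p = 0.000869) and the heavy fraction 0.83 (SE 0.18, adjusted p = 0.000670) in the same fit. Tested directly, the excess of the low polysome change over the monosome change did not pass (0.56, SE 0.25, limma adjusted p = 0.207). As a share of the reads assigned to genes, Actb made up 0.534% to 0.737% of the WT high polysome libraries and 1.04% to 1.15% of the KO ones. It ranked first among all genes in each of the 3 KO high polysome libraries, and between 1 and 3 in the WT high polysome libraries. In the monosome its rank was between 7 and 13 in KO and between 38 and 74 in WT.

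Gamma-actin, the product of Actg1 at chr11:120345690-120348542 (minus strand), is the other cytoplasmic actin and is abundant in most cells, yet it was close to absent from the count table. Its counts ran from 0 to 12 per library and came to 53 over all 18 libraries, where Actb had 753859. In the high polysome it had 2, 1 and 5 counts in WT and 3, 3 and 12 counts in KO. At this depth no difference between the genotypes was detectable for Actg1, and no fold change is given. Since only uniquely aligned reads were counted, the last 300 bases of each transcript were compared with all annotated transcripts of other genes in Gencode M21, in windows of 50 bases, the read length. For Actg1, 0 of 251 windows had a match with at most 1 mismatch, and no other annotated gene overlapped its 3′ end. For Actb there were 29 such windows (11.6%) and for Krt18 10 (3.98%). Reads from these windows may not be unique to these 2 genes, and the error this brings to their counts was not measured. The other genes had 0. Unannotated copies in the genome were not searched here, and what keeps the counts of Actg1 low was not tested. A CArG box, the motif bound by SRF (CC, then 6 bases that are each A or T, then GG), was sought on both strands of the RefSeq promoters (GRCm38.p6), each from 250 bases before to 50 bases after a start site. Of the 9 genes 7 had a promoter in the table, and 1 of the 7 held the box, against 1.63% of 32851 promoters. That 1 was Actg1, and its box is shown in capitals, within chr11:120348566-120348595 on the minus strand, with the box at bases -90 to -81 relative to the start site. Actb and Krt19 had no entry. 
Actg1 promoter: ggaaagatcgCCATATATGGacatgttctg

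Of the actin-binding genes, Tpm1 encodes tropomyosin, which lies along the filament. Its level was 231, 234 and 235 CPM in the WT monosome and 431, 438 and 411 CPM in the KO monosome. In the high polysome it was 271, 271 and 236 CPM in WT and 459, 483 and 430.2 CPM in KO. The groups did not overlap in any fraction, and the difference was of like size in each, with limma log2 changes of 0.87 (SE 0.11, adjusted p = 4.93e-06) for the monosome, 0.83 (SE 0.11, adjusted p = 4.05e-06) for the low polysome and 0.82 (SE 0.11, adjusted p = 5.36e-06) for the high polysome. Tagln2 encodes transgelin-2, a calponin-family protein that bundles actin. It had 390.3, 360.4 and 461 CPM in the WT low polysome against 1213, 2140.1 and 1569 CPM in KO, and 1226, 907 and 986 CPM in the WT high polysome against 2078, 2298 and 2847 CPM in KO. The lowest KO library was thus above the highest WT library in both, as it was in the monosome, and the log2 changes were 1.36, 1.99 and 1.21 from monosome to high polysome (limma adjusted p of 8.49e-06 or less). Cald1 encodes caldesmon, which restrains actomyosin. Its level was 170.4, 228 and 216 CPM in the WT high polysome and 689, 564 and 564 CPM in KO. Its log2 changes were 1.27, 1.92 and 1.57 in the same order (limma adjusted p of 2.68e-06 or less), with no overlap of KO and WT libraries in any fraction. The call and the direction of Actb, Tpm1, Tagln2 and Cald1 held in each fraction under all alternatives tried.

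Krt8, at chr15:101996711-102004342 (minus strand), and Krt18, its partner at chr15:102028216-102032026 (plus strand), are neighbours on chromosome 15, and both were scarce in WT. Krt8 had 2.39, 1.63 and 3.94 CPM in the WT monosome and 33.2, 20.9 and 23.5 CPM in the KO monosome. The low polysome held 0.368, 0.845 and 0.761 CPM in WT and 24.7, 19.6 and 21.9 CPM in KO. For the high polysome the values were 1.93, 2.10 and 1.98 CPM in WT and 72.9, 58.1 and 49.7 CPM in KO. The lowest of the 9 KO libraries was above the highest of the 9 WT libraries, and the log2 change was 3.25 (SE 0.40, adjusted p = 2.50e-06), 5.02 (SE 0.49, adjusted p = 8.71e-08) and 4.85 (SE 0.31, adjusted p = 3.08e-10) in the 3 fractions by limma. The WT values rest on 3 to 21 counts per library. Since Krt8 passed the filter through KO libraries alone, its calls and lack of overlap only describe a gene kept for its KO level. Krt18 had 6.37, 5.11 and 4.97 CPM in the WT monosome and 60.6, 34.4 and 29.4 CPM in the KO monosome. Low polysome levels were 1.96, 2.11 and 1.65 CPM in WT and 48.2, 45.3 and 32 CPM in KO, and high polysome levels 4.24, 3.70 and 5.75 and 77.3, 51.5 and 54.9 CPM. Again all 9 KO libraries were above all 9 WT libraries, and the log2 changes were 2.86, 4.38 and 3.72 (limma adjusted p of 9.85e-06 or less).

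Krt19, on chromosome 11 at chr11:100140810-100146120 (minus strand), was at the limit of detection in WT. Its counts in gradients 1 to 3 of the monosome were 0, 1 and 2 in WT and 37, 19 and 24 in KO. Low polysome counts were 0, 0 and 2 in WT and 31, 32 and 40 in KO. High polysome counts were 0, 4 and 2 in WT and 80, 85 and 56 in KO. No WT library reached the lowest KO library, but Krt19 passed the filter through KO libraries alone. From the summed counts of each group, the KO share of reads was 13.6 times the WT share in the monosome (95% exact interval 4.49 to 67.4), 45.2 times in the low polysome (12.2 to 378) and 35.9 times in the high polysome (16.2 to 98.8). These intervals cover counting error only. The summed level of the 3 keratins was 6.16 to 7.91 CPM in the WT high polysome and 110.4 to 159 CPM in the KO high polysome. Keratins also mark trophectoderm, so the markers of other cells were read beside them. The 6 trophectoderm markers summed to 100.0 to 186 CPM in WT and 145 to 263 CPM in KO libraries. Of these, 4 could be tested and 3 were higher in KO in the mean over fractions, against 28.4% of all genes, with a median log2 change of 0.56. Eomes was tested and not called. The 3 higher ones were Krt7, itself a simple-epithelial keratin (3.98, adjusted p = 6.82e-07), Gata3 (0.83, adjusted p = 0.000973) and Tfap2c (0.30, adjusted p = 0.0432), by limma. Krt7 passed the filter through KO libraries alone and so was kept for its KO level, and the median of the other 3 tested was 0.30. Elf5, a defining factor of trophoblast stem cells, had a mean under 1 CPM in both genotypes, and Cdx2 and Krt7 had a mean under 1 CPM in WT. The 6 primitive endoderm markers summed to 4.41 to 10.8 CPM in WT and 7.05 to 25.7 CPM in KO, and the 5 markers of primed epiblast to 103 to 149 and 32.7 to 80.4 CPM. In the mean over fractions the 1 primitive endoderm marker tested was higher in KO by limma, against 28.4% of all genes. All 3 primed epiblast markers tested were lower, against 28.2% of all genes, with a median log2 change of -1.07. The part of other cell types in the keratin result was not tested.

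**Figure D2:**
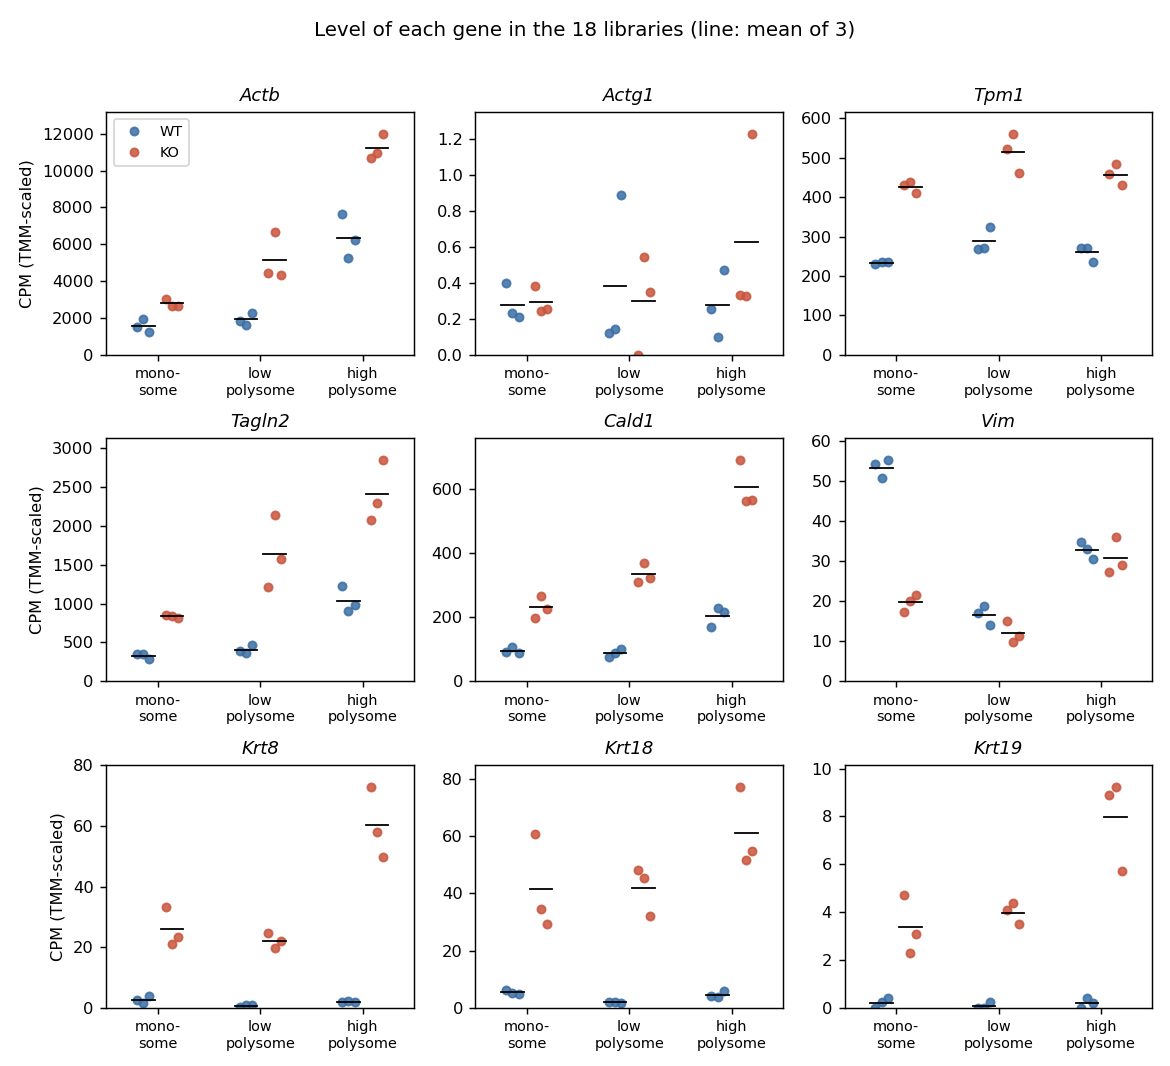
Level of each of the 9 genes in TMM-scaled CPM (vertical axis, linear from 0, a scale of its own for each gene) by fraction, with 1 point per library, WT in blue, KO in red and a line at the mean of 3. Krt8 stays at or below 3.94 CPM in WT and reaches 72.9 CPM in KO, while Vim falls in the KO monosome and overlaps between genotypes in the high polysome.

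Vim, at chr2:13573952-13582826 (plus strand), went the other way. In the monosome its level was 54.2, 50.6 and 55.1 CPM in WT and 17.4, 20.1 and 21.5 CPM in KO. High polysome levels were 34.8, 33 and 30.4 CPM in WT and 27.3, 36 and 29.1 CPM in KO, and low polysome levels 17, 18.9 and 14 and 15, 9.68 and 11.2 CPM. The genotypes were apart in the monosome and overlapped in the low polysome and the high polysome. Vim fell by 1.44 on the log2 scale in the monosome (SE 0.16, limma adjusted p = 1.08e-06). For the high polysome limma gave -0.09 (SE 0.15, adjusted p = 0.621), and for the low polysome -0.49 (SE 0.18, adjusted p = 0.0344). The call in the low polysome was lost under 7 of 14 alternatives, among them leaving out WT gradient 1 (-0.46, adjusted p = 0.101), WT gradient 2 (-0.41, adjusted p = 0.145), KO gradient 2 (-0.36, adjusted p = 0.141) or KO gradient 3 (-0.48, adjusted p = 0.112). Bringing all libraries to equal depth gave -0.08 (limma adjusted p = 0.843). Vim is also a fibroblast marker, and fibroblasts serve as feeders for ESCs. The 9 other fibroblast markers summed to 12.1 to 23.2 CPM in WT and 10.9 to 18.2 CPM in KO. Col3a1 was at 0 in all 18 libraries, and Col1a2, Postn, Dcn and Lum each had a mean under 1 CPM in both genotypes. Of the 9, 4 could be tested. In the mean over fractions 0 were higher in KO by limma, against 28.4% of all genes, and 1 was lower, against 28.2%. The lower one was Twist1 (-1.62, adjusted p = 0.000445), which passed the filter through WT libraries alone. In the high polysome 1 was higher, against 25.3% of all genes, and 2 were lower, against 21.1%. The part of fibroblasts in the Vim result was not tested.

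The 3′ UTRs of the 9 genes were searched for the seed match of the miR-294 family, the miRNAs that dominate in ESCs and act through complexes that can recruit DDX6. The longest annotated UTR of each gene was used (Gencode M21, GRCm38), with lengths from 66 bases in Krt18 to 2245 bases in Cald1. Vim was the 1 gene of 9 with a match, against 17.4% of 11745 genes that passed the filter and had a UTR. Its match was followed by an A, which makes it an 8mer site, found in 3.51% of those genes. The median UTR of those genes was 1136 bases long, and a shorter UTR, such as the 242 bases of Krt8, offers fewer places for a match. The site begins at base 168 of the 342-base UTR, inside chr2:13582640-13582669 on the plus strand. The mature miRNAs that share the seed, from RefSeq, are set under it, with bases 2 to 8 in capitals and the complementary bases of the Vim site in capitals. 
Vim site: gaaagaagctcAGCACTTaacaactgacac
miR-291a-3p: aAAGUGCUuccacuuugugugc
miR-294-3p: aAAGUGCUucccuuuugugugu
miR-295-3p: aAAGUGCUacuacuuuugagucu
miR-302b-3p: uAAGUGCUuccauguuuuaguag
miR-302d-3p: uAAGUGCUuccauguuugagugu
A match is a description of these letters, and binding was not measured.

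Next, the distribution over fractions was compared within each genotype, as high polysome over monosome. Actb was the gene of the set most enriched in heavy polysomes in both genotypes, Tpm1 was spread evenly, and Vim was lower in heavy polysomes in WT and higher in KO. In WT, 3 of the 8 genes were higher in the high polysome, against 28.9% of all genes, and 1 was lower, against 32.2%. The higher ones were Actb at a log2 difference of 2.02 (SE 0.18, adjusted p = 5.98e-09), Tagln2 at 1.66 and Cald1 at 1.11, and the lower one was Vim at -0.71 (SE 0.15, adjusted p = 0.000428), all by limma. In KO, 7 genes were higher, against 35.0% of all genes, and 0 were lower, against 33.6%. Actb stood at 2.01, Tagln2 at 1.51 and Cald1 at 1.40. Krt19 was at 1.25 (SE 0.32, adjusted p = 0.00160), Krt8 at 1.23 (SE 0.17, adjusted p = 2.42e-06), Vim at 0.64 (SE 0.16, adjusted p = 0.00128) and Krt18 at 0.61 (SE 0.21, adjusted p = 0.0139) by limma. Tpm1 did not pass in either genotype, with 0.15 (SE 0.11, adjusted p = 0.259) in WT and 0.10 (SE 0.11, adjusted p = 0.432) in KO by limma. In WT the keratins did not pass either, at -0.38 (SE 0.47) for Krt8, -0.25 (SE 0.45) for Krt18 and -0.80 (SE 0.88) for Krt19, where few counts give wide errors. Without KO gradient 3 the KO call of Krt18 was lost (0.49, limma adjusted p = 0.0722), and without KO gradient 2 that of Krt19 was lost (0.88, adjusted p = 0.0547).

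The study took the high polysome over monosome ratio as translation level and its change in KO as an interaction term, which was tested here for the same genes. Vim and Krt8 shifted toward heavy polysomes in KO, while the difference did not pass for the other 6 genes. By limma 2 of the 8 genes were raised, against 10.7% of all genes, and 0 were lowered, against 7.09%. The tool called 1357 genes raised and 901 lowered in all, and 936 and 1386 when libraries were scaled by size alone. For Vim, log2(high polysome / monosome) was -0.63, -0.61 and -0.85 in WT gradients 1 to 3 and 0.64, 0.83 and 0.42 in KO gradients 1 to 3. Every WT gradient was below 0 and every KO gradient above it. The difference was 1.35 (SE 0.22, adjusted p = 0.000637) by limma, and it was called under all 15 alternatives. The exact permutation test of the 6 gradients gave p = 0.1, the smallest that 3 against 3 allow. Of the levels in this ratio, the monosome of Vim held 53.3 ± 2.35 CPM in WT and 19.7 ± 2.13 CPM in KO (SD, n = 3 each), and the high polysome 32.7 ± 2.19 and 30.8 ± 4.60 CPM, a difference within the spread. For Krt8 the ratios were -0.25, 0.29 and -0.84 in WT and 1.12, 1.45 and 1.07 in KO, without overlap. The difference was 1.61 (SE 0.50, adjusted p = 0.0326) by limma. The call was lost under 8 of 15 alternatives, including the omission of WT gradient 1 (1.52, adjusted p = 0.108), WT gradient 2 (1.99, adjusted p = 0.0507), WT gradient 3 (1.21, adjusted p = 0.231), KO gradient 2 (1.48, adjusted p = 0.0698) or KO gradient 3 (1.67, adjusted p = 0.0603). It was also lost on removal of the trend of all genes on coding length (1.48, adjusted p = 0.0862). That trend came to 0.13 at the 1470 coding bases of Krt8 and to 0.09 at the 1398 of Vim. Krt18 had ratios of -0.54, -0.42 and 0.19 in WT and 0.35, 0.57 and 0.89 in KO, and Krt19 had 0.00, 0.30 and -0.41 and 0.85, 1.80 and 0.80. Both sets of gradients were apart, but the limma differences of 0.87 (SE 0.50, adjusted p = 0.235) and 2.06 (SE 0.94, adjusted p = 0.131) did not pass. In all, 4 of the 8 genes had every KO gradient above every WT gradient in this ratio, as did 21.2% of all genes, and 0 had every KO gradient below, as did 17.8% of all genes. Krt8 and Krt19 are among these 4, but both passed the filter through KO libraries alone and have few counts in WT. Krt19 had 0 counts in both fractions of WT gradient 1, so its ratio of 0.00 there is the pseudocount over itself. The pseudocount of 0.5 CPM draws the ratios of Krt8 and Krt19 in WT toward 0. For Actb the ratios were 2.33, 1.42 and 2.32 in WT and 1.81, 2.04 and 2.17 in KO, for Tpm1 0.23, 0.21 and 0.01 and 0.09, 0.14 and 0.06. These overlapped, and the limma differences were -0.01 (SE 0.25) and -0.05 (SE 0.16), with -0.15 (SE 0.24) for Tagln2 and 0.29 (SE 0.21) for Cald1.

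**Figure D3:**
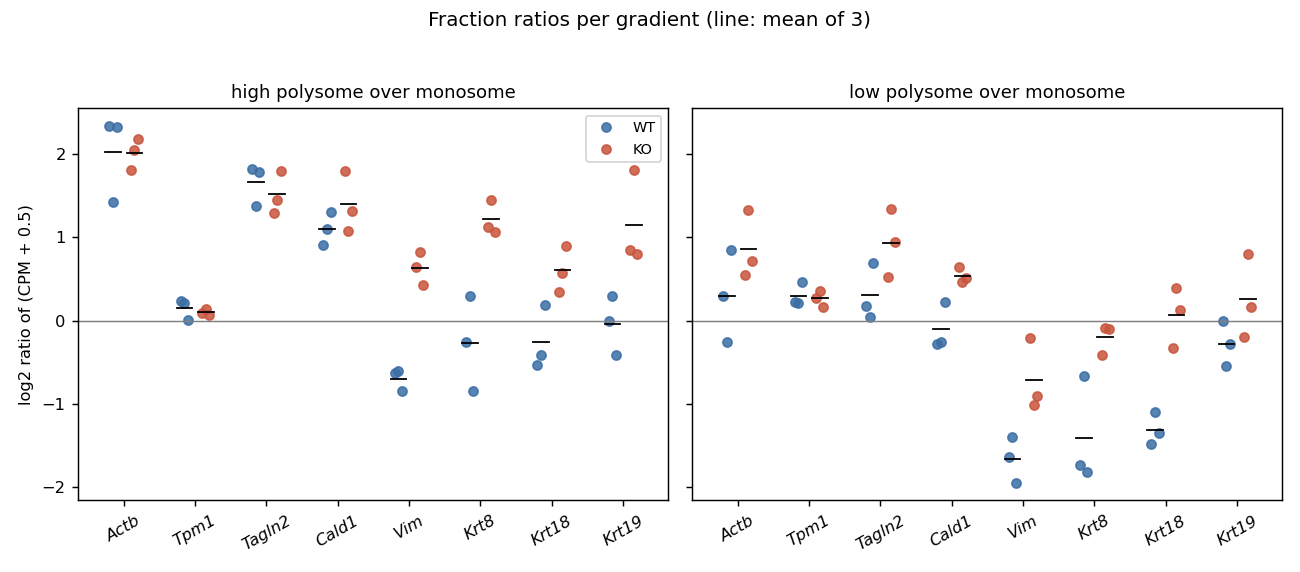
Log2 ratio of high polysome (left) or low polysome (right) over monosome for the 8 tested genes (vertical axis, CPM plus 0.5), with 1 point per gradient, WT in blue, KO in red and a line at the mean of 3. On the left the KO gradients of Vim lie above 0 and its WT gradients below, and the points of Actb and Tpm1 overlap.

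When the ratio was taken from the low polysome instead, 1 of the 8 genes was raised, against 2.31% of all genes, and 0 were lowered, against 2.39%. Vim was again the gene called, with ratios of -1.64, -1.40 and -1.94 in WT and -0.21, -1.01 and -0.91 in KO and a difference of 0.96 (SE 0.25, adjusted p = 0.0326) by limma, a call that was lost under 8 of 15 alternatives, including the omission of WT gradient 1 (0.96, adjusted p = 0.141), WT gradient 2 (1.08, adjusted p = 0.0936), WT gradient 3 (0.80, adjusted p = 0.108), KO gradient 1 (0.72, adjusted p = 0.0935) or KO gradient 3 (1.04, adjusted p = 0.166). Of all calls in this ratio 49.2% were raised ones, and 31.7% when libraries were scaled by size alone. Krt8, Krt18 and Cald1 had KO gradients wholly above WT in this ratio (Krt8 not with a pseudocount of 2 CPM, where its gradients overlapped and the difference of means went from 1.20 to 0.59) without passing in limma, at differences of 1.77 (SE 0.63, adjusted p = 0.108), 1.53 (SE 0.59, adjusted p = 0.141) and 0.65 (SE 0.22, adjusted p = 0.0869). The share of all genes set apart in this way was not counted for this ratio, and in the high polysome ratio it was 21.2%. Krt8 also passed the filter through KO libraries alone. Without KO gradient 1, the 1 from clone 1, limma called Krt8 (1.89, adjusted p = 0.0387), Krt18 (1.72, adjusted p = 0.0204) and Tagln2 (0.83, adjusted p = 0.0424). When the gradient was added to the fit as a block, Krt18 passed as well (1.53, adjusted p = 0.0404), which made 2 genes raised. Every gradient of both genotypes thus had less Vim in the low polysome than in the monosome.

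Clone 1 is represented by a single gradient and clone 2 by the remaining pair, and keratin levels were read by clone. Averaged over fractions, the log2 CPM of Krt8 was 0.36, 0.58 and 0.92 in WT gradients 1 to 3 and 5.29, 4.85 and 4.88 in KO gradients 1 to 3. For Krt18 these were 1.94, 1.80 and 1.88 in WT and 5.93, 5.43 and 5.22 in KO. For Krt19 the KO values were 2.49, 2.20 and 2.01. All 3 keratins were highest in KO gradient 1, from clone 1. For Actb the WT values were 11.44, 11.32 and 11.34 and the KO values 12.36, 12.50 and 12.34. For Vim they were 4.99, 4.98 and 4.84 in WT and 4.27, 4.26 and 4.26 in KO. Both clones were on the same side of WT for all 8 genes in this mean, where limma called 28.4% of all genes higher and 28.2% lower. The share of all genes with both clones on 1 side was not counted. Krt8 and Krt19 passed the filter through KO libraries alone and so were kept for their KO level. With 1 gradient of clone 1, differences between clones and between gradients cannot be told apart.

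Each read marks 1 transcript end, so levels were compared between genes without dividing by length. Over the 9 WT libraries the lowest, median and highest level was 1250.3, 1959 and 7617 CPM for Actb, 285, 390.3 and 1226 for Tagln2, 231, 269 and 324 for Tpm1 and 74.9, 102 and 228 for Cald1. Below them came Vim at 14, 33 and 55.1, Krt18 at 1.65, 4.24 and 6.37, Krt8 at 0.368, 1.93 and 3.94, and Actg1 and Krt19 under 1 CPM. Over the 9 KO libraries Actb had 2656, 4447 and 11997 CPM and Vim 9.68, 20.1 and 36 CPM, and in the order of medians Krt18 (29.4, 48.2 and 77.3) and Krt8 (19.6, 24.7 and 72.9) had moved above Vim. Neighbours whose ranges overlapped were Tagln2 and Tpm1, Krt18 and Krt8, Krt8 and Actg1, and Actg1 and Krt19 in WT, and Actb and Tagln2, Tpm1 and Cald1, Krt18 and Krt8, and Krt8 and Vim in KO. These ranges span the fractions as well as the gradients. Across the 18 libraries, which share genotype and fraction differences, log2 CPM of Krt8 and Krt18 went together with a Pearson r of 0.98, Tagln2 and Cald1 with 0.95, and Actb and Tagln2 with 0.94. Vim had a negative r with each of the 7 other genes, from -0.63 with Tpm1 to -0.11 with Actb. Among 9029 genes with a mean of at least 10 CPM, those most like Actb were Capns1 (r = 0.99), Klhdc10 (0.98) and Letm1 (0.98). Those most like Krt8 were Sox4 (r = 0.98), Klf6 (0.98) and Il2rg (0.98), and those most like Tpm1 were Lbh (r = 0.98), Apod (0.98) and Smpd1 (0.97). For Vim they were Cct2 (r = 0.96), Rpl4 (0.96) and Rpl3-ps1 (0.93), the first a subunit of the chaperonin that folds actin and tubulin, the second a ribosomal protein gene and the third a pseudogene of another. These correlations are descriptions over 18 libraries.

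Last, the 9 genes were set beside 85 other genes of the cytoskeleton. In the mean over fractions, 40 of the 74 tested were higher in KO and 7 were lower by limma, where 28.4% and 28.2% of all genes were, and the median log2 change was 0.36, against -0.02 for all genes. Of the 74, 5 had passed the filter through KO libraries alone and 1 through WT libraries alone, and so were kept for their level in 1 genotype. Of the other 68 genes 35 were higher and 6 lower, with a median of 0.34. Of the other intermediate filament genes 6 of 12 were higher and 2 lower, with a median of 0.63. Without Krt7, Krt17 and Synm, each of which passed the filter through 1 genotype alone, 4 of 9 were higher and 1 lower, with a median of 0.19. Krt17 rose (3.46, adjusted p = 1.54e-08), as did Lmna, which encodes the A-type lamins (1.52, adjusted p = 1.21e-07). Synm (synemin) and Nes (nestin) fell (-2.04, adjusted p = 3.41e-06 and -1.19, adjusted p = 6.62e-06), but Synm had passed the filter through WT libraries alone. Acta1, the skeletal muscle actin and the 1 of 4 other actins that passed the filter, rose from a mean of 0.445 CPM in WT to 5.84 CPM in KO (3.93, adjusted p = 1.46e-06). But Acta1 passed the filter through KO libraries alone and so was kept for its KO level. Among other tropomyosin, calponin and transgelin genes 4 of 7 were higher and 0 lower, led by Cnn2 (calponin-2, 1.64, adjusted p = 2.24e-07) and Tpm2 (1.14, adjusted p = 2.28e-06). Within the high polysome alone 3 of these 7 were higher and 2 lower, against 25.3% and 21.1% of all genes. Genes of actin monomer binding, nucleation and turnover gave 11 higher and 1 lower of 20, with a median of 0.35. By fraction this list had 12 higher and 0 lower in the monosome, with a median of 0.56, against 18.6% and 20.1% of all genes. The high polysome had 3 higher and 2 lower, with a median of 0.09, against 25.3% and 21.1% of all genes. Cotl1, a coactosin-like actin-binding protein, and Arpc4, a subunit of the Arp2/3 nucleator, rose (1.19, adjusted p = 6.82e-07 and 0.92, adjusted p = 6.34e-06), and Cfl2, a cofilin that severs filaments, fell (-0.37, adjusted p = 0.00322). Of the crosslinking, myosin and focal adhesion genes 12 of 21 were higher and 3 lower, with a median of 0.44. Zyx (zyxin of focal adhesions, 2.64, adjusted p = 1.91e-08) and Flnc (a filamin that passed the filter through KO alone, 2.43, adjusted p = 2.04e-07) rose, and Rdx (radixin, -0.44, adjusted p = 0.00339) fell. Of the junction and keratin linkage genes 6 of 10 were higher and 0 lower, led by the adhesion molecule Epcam (0.72, adjusted p = 3.36e-05) and by Plec, whose product plectin ties keratin filaments to other structures (0.85, adjusted p = 4.76e-05). Srf itself fell (-0.38, adjusted p = 0.00462), and the coactivator genes Mrtfa (0.21, adjusted p = 0.142) and Mrtfb (-0.01, adjusted p = 0.963) did not pass. All these adjusted p are from limma.

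**Figure D4:**
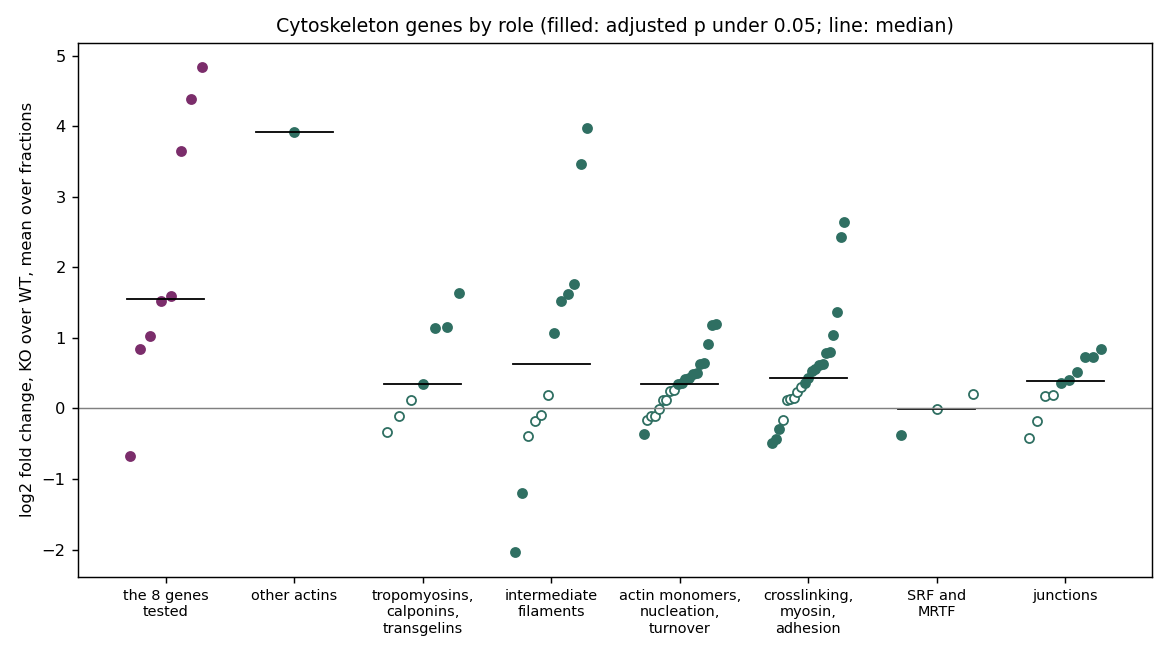
Log2 fold change of KO over WT in the mean over fractions (vertical axis, from limma, 3 gradients per genotype) for the 8 tested genes and for other cytoskeleton genes by role, with filled circles for an adjusted p under 0.05 and a line at each median. The 8 genes run from -0.67 for Vim to 4.84 for Krt19.

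In translation level, 16 of the 74 genes were raised and 7 lowered by limma, against 10.7% and 7.09% of all genes. Of these, 9 of 21 crosslinking, myosin and adhesion genes were raised and 2 lowered. Flna, a filamin that crosslinks actin, and Ezr, which links actin to the membrane, were raised (1.65, adjusted p = 0.00193 and 0.98, adjusted p = 0.00279), and the myosin light chain genes Myl12a and Myl12b were lowered (-1.49, adjusted p = 0.00344 and -1.18, adjusted p = 0.0195). Junction genes gave 4 raised and 0 lowered of 10, and intermediate filament genes 3 and 0 of 12, Lmna among the raised (0.95, adjusted p = 0.0257). Krt17 was another of the 3 (1.69, limma adjusted p = 0.0477), but it passed the filter through KO libraries alone. Of the 74 genes 5 passed in that way and 1 through WT libraries alone, and these are kept in the counts given here. Actin monomer binding, nucleation and turnover genes gave 0 raised and 4 lowered of 20, Arpc4 among the lowered (-0.72, adjusted p = 0.0186). Across all genes this difference had a trend on coding length, -0.40 at the 597 bases of Tagln2 and 0.18 at the 1602 of Cald1. With the trend removed, limma called 423 genes raised and 279 lowered, against 1357 and 901. The lists were not counted with it removed, and the part of coding length in these counts was not tested.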

How the data were processed

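18 libraries of V6.5 mouse ESCs, 3 fractions of 3 WT and 3 Ddx6 KO gradients, were measured by QuantSeq 3′ end sequencing. Per the file headers and methods, the authors trimmed reads with cutadapt 1.14, aligned them to mm10 with STAR 2.5.3a, kept unique alignments and made the deposited counts per gene with strand-specific featureCounts 1.5.3 on the Gencode M14 basic annotation. Copies made by PCR stay in the counts, and genes with near-identical copies lose reads. Symbols came from Gencode M21, which 51274 of 51467 identifiers matched, and 92 spike-in sequences were left out.

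Genes with at least 3 CPM in at least 3 libraries were kept (12705 genes, 99.6% of counts). TMM factors from edgeR 4.0.16 scaled the counts, and voom of limma 3.58.1 under R 4.3.3 fitted 6 group means to the 18 libraries. KO was compared with WT within fractions, high polysome with monosome within genotypes, and both by an interaction term. The mean over fractions was tested in limma on gradient means of log2 CPM. Tests were two-sided, with p adjusted by Benjamini-Hochberg across every gene kept and a threshold of 0.05. Through TMM each change is relative to the bulk of genes. Ratios for single gradients used a pseudocount of 0.5 CPM. Scripts were tested on simulated data.

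Same-numbered fractions of a genotype were taken as parts of 1 gradient, and their deviations from group means correlated at -0.162 to 0.418 (7 of 18 pairs over 0.1). WT and KO share only a number.

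The genes, lists and tests were chosen with earlier results of these data known. Named besides the 9 genes were up to 2 genes per list and direction with the smallest adjusted p (at most 20), the 3 genes most correlated with each of Actb, Vim, Krt8 and Tpm1, and Ddx6. Mrtfa and Mrtfb were named after their values were seen, and 1 gene that met the rule is not reported here. Alternatives were other scalings (DESeq2 1.42.0 size factors, library size), no filter, equal depth, edgeR, DESeq2, only the groups compared, blocks, summed fractions, removal of a trend on coding length, each gradient left out, and a pseudocount of 2 CPM.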

Additional observations from a re-analysis of the deposited data

Results flagged for a closer look

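For Vim and Krt8 the effect of the fraction differed between WT and KO by the interaction term of limma. For Vim, log2(high polysome / monosome) differed by 1.35 (SE 0.22, adjusted p = 0.000637), from a mean of -0.70 ± 0.13 in WT to 0.63 ± 0.20 in KO (SD, n = 3 gradients each), and log2(low polysome / monosome) by 0.96 (SE 0.25, adjusted p = 0.0326). For Krt8 the high polysome over monosome difference was 1.61 (SE 0.50, adjusted p = 0.0326). The KO ratio was higher in 3 of 3 gradients than in any WT gradient for each of these 3 comparisons, which were picked because limma called them. In the high polysome ratio 21.2% of all genes were set apart in this way, and the share was not counted for the low polysome ratio. Krt8 passed the filter through KO libraries alone. Groups of 3 are too small for the test of single outlying samples.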

How the results depend on the processing

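Of 892 values, the log2 changes of the 8 genes under 17 alternatives, 858 kept their direction and side of the threshold or were uncalled under both settings, 25 lost their call, 9 gained one, and 0 called values changed sign. The low polysome count of 1 lower gene (Vim) became 0 without the filter, at equal depth and with only the groups compared fitted, and ran from 0 to 1 when 1 gradient was left out. The 2 genes with raised translation level became 1 (Vim) with library size alone, without the filter and with the coding length trend taken out, and ran from 1 to 2 when 1 gradient was left out. The 1 gene raised in the low polysome ratio (Vim) became 0 without the filter, with only the groups compared and with the length trend removed, 2 with edgeR and with the gradient as replicate block, and 4 with DESeq2, and it ran from 0 to 3 when 1 gradient was left out. With the length trend removed Vim had 0.80 there (adjusted p = 0.111). Blocks on the gradient or on the shared number changed no other call of the 8 genes, and the correlations of deviations between same-numbered WT and KO libraries were -0.446 to 0.223. The causes were not tested.

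Over all genes, calls raised in translation level ran from 423 (length trend removed and 471 without KO gradient 3) to 1621 (only the groups compared) against 1357, and lowered ones from 277 (without KO gradient 3) to 1386 (library size alone) against 901. In the low polysome ratio they ran from 23 to 546 (2.31% of all genes as reported) and from 6 to 527 against 304, lowest without KO gradient 3 and highest with DESeq2. Without the filter, lower calls rose from 2548 to 3929 in the monosome and from 4086 to 10866 for WT high polysome against monosome. Library size alone moved the median interaction of all genes by -0.12 on the log2 scale. Depth limits Krt8, Krt18 and Krt19 in WT and Actg1 throughout.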
